A study of Mus musculus with 32 samples.

Results

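The hearts of mice that had been stressed for 5 days and then rested for 10 days were compared with those of their own controls, a condition named T5R10 in the study. The 8 arrays were chosen by their sample titles, 4 of stressed and 4 of control mice, out of 32 arrays in the series, which models posttraumatic stress disorder. All were C57BL/6 mice, and total RNA was taken from each animal's heart separately and hybridised in 1 colour (Cy3) to an Agilent mouse array, so an array is a mouse. On each of the 5 days a stressed mouse spent 6 hours in a wire mesh box in the cage of an aggressor, and was also put with that mouse for short bouts of attack. Controls sat in the same kind of box in a large cage that held no aggressor, so confinement was common to both arms. Age and sex are not given in the labels used here. The nearest other condition, T5R1, had the same exposure and 1 day of rest, with 4 stressed and 4 control mice of its own, so it shared no animal with T5R10. The p-values and SEs use a spread between animals pooled over all 8 groups of the series (24 residual degrees of freedom), and the small number of arrays limits the precision.

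Repeated defeat by an aggressor drives the sympathetic nerves and the adrenal cortex, and the heart is a target of both. Fibroblasts of a loaded or injured heart divide and lay down collagen and other matrix, under the control of TGF-beta, and much of that activity fades once the load ends. Rodent ventricles run mainly on the alpha myosin heavy chain, Myh6, and re-express the slower fetal beta chain, Myh7, under load.

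Values are log2 units above or below the 75th percentile signal of the same array, so a difference of 1 is a doubling. A gene is said to have risen, fallen or been called where the Benjamini-Hochberg adjusted p of limma's moderated test, over all 27535 genes tested, was below 0.05. The 8 arrays had between 37049 and 43736 spots well above background, against 31266 to 41436 on the other slides. They correlated at 0.9863 to 0.9919 among controls, 0.9821 to 0.9877 among stressed mice and 0.9809 to 0.9895 between the arms. Heart muscle genes marked the tissue on all 8 arrays, with cardiac actin Actc1 between 9.92 and 10.26 and titin Ttn between 7.51 and 7.95. The scanner software marked 3 of the arrays for uneven spots or spike-ins: control 4, stressed 1 and stressed 2. All 8 shared a slide, with controls in its first columns and stressed mice in the others, so slide column and stress cannot be told apart. Stressed 1 and 2 shared a column, as did stressed 3 and 4.

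After 10 days of rest 21 genes were called, 0.0763% of those tested. Of these, 6 rose (0.0218%) and 15 fell (0.0545%), and the median difference over all genes was -0.02. The rises were small, with a median of 0.42, and the falls larger, with a median of -1.1. No rise reached 2-fold, and 9 falls did. With quantile normalisation the split turned to 45 higher and 38 lower, and 20 of the 21 calls were among them. At an unadjusted p below 0.05, 1786 genes lay higher (6.49%) and 2057 lower (7.47%).

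**Figure D1:**
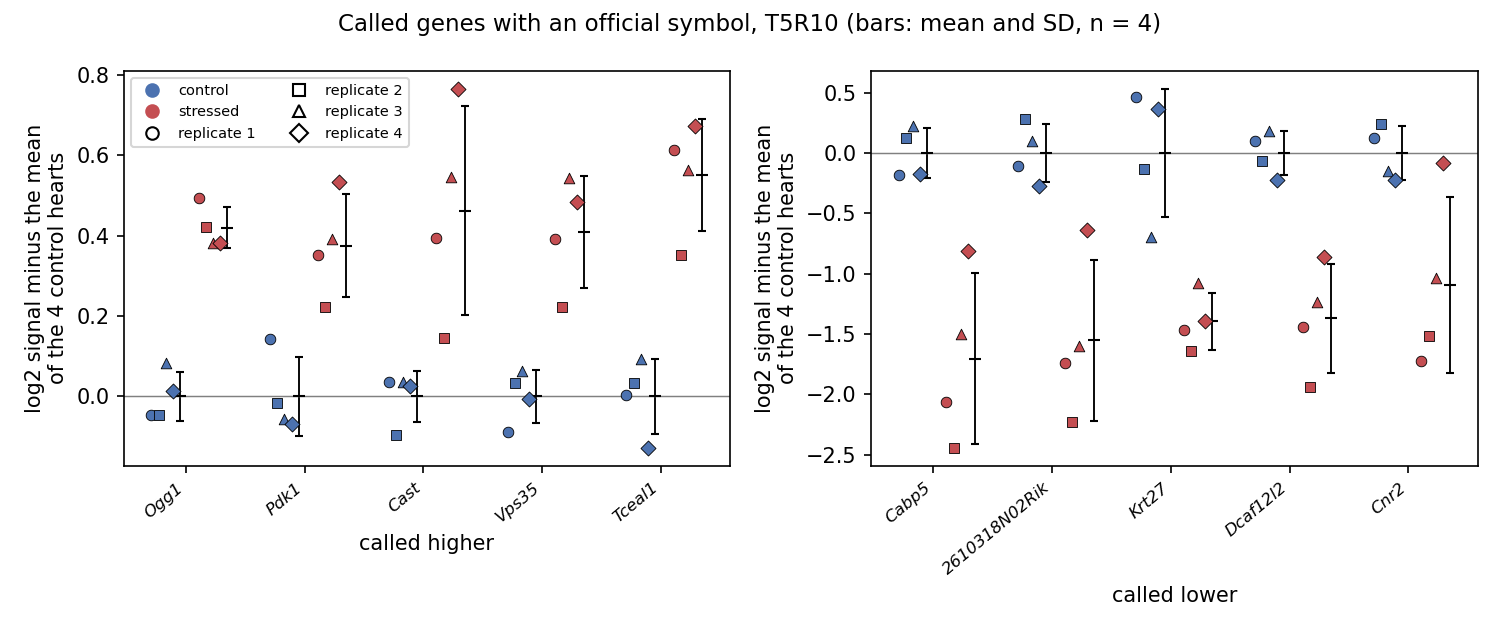
Level of the 10 called genes with an official symbol on each of the 8 T5R10 arrays, in log2 units relative to the mean of the 4 control hearts. Colour marks the arm, the symbol marks the replicate number and bars give the mean and SD (n = 4). The rises (left) lie between 0.37 and 0.55 in the mean, the falls (right) reach -1.71, and stressed 4 lies nearest the controls in Cabp5, 2610318N02Rik, Dcaf12l2 and Cnr2.

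Ogg1 encodes the glycosylase that starts base excision repair by removing oxidised guanine from DNA. Its level in controls 1 to 4 was -1.12, -1.12, -0.99 and -1.06, and in stressed mice 1 to 4 it was -0.58, -0.65, -0.69 and -0.69. The arms did not overlap, and each kept within a narrow band. The rise was 0.42 ± 0.08 (SE, 4 against 4; limma adjusted p = 0.0236), measured by a probe at chr6:113284105-113284164 of mm9. Ogg1 had also risen after 1 day of rest, by 0.26 (adjusted p = 0.0194), the one gene that was called higher in both conditions. Of 20 base excision repair genes tested, 11 measured higher, with a median of 0.05. Apex1, the endonuclease that cuts the site Ogg1 leaves, stood at 0.94, 0.93, 0.94 and 1.06 in controls and 1.31, 1.09, 1.35 and 1.35 in stressed mice. Every stressed mouse lay above every control, stressed 2 only just. The difference was 0.31 ± 0.09 and was not called (adjusted p = 0.141). Parp1, which binds the broken strand, differed by 0.22 ± 0.10 (adjusted p = 0.325).

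Pdk1 is a kinase that switches off pyruvate dehydrogenase, the gate through which pyruvate enters the mitochondrial citrate cycle. Controls read 1.36, 1.2, 1.16 and 1.15, and stressed mice 1.57, 1.44, 1.61 and 1.75. The groups were separate, though stressed 2 came close to control 1. Pdk1 rose by 0.37 ± 0.07 (adjusted p = 0.0466; probe at chr2:71739688-71739747). Of 13 genes of this switch, 12 measured higher, with a median of 0.13, against 46.1% of all genes measuring higher. The 12 include Pdk1 itself, and the list was chosen with earlier results of these data known. The count is therefore a description only. Pdha1, a catalytic subunit of the dehydrogenase itself, read 5.32, 5.14, 5.33 and 5.11 in controls and 5.54, 5.3, 5.71 and 5.73 in stressed mice. Stressed 2 lay among the controls and the other stressed mice above them, and the difference of 0.34 ± 0.11 was not called (adjusted p = 0.15). Dld, the shared dihydrolipoamide dehydrogenase, differed by 0.26 ± 0.11, and the sister kinases Pdk4 and Pdk2 by 0.16 ± 0.32 and 0.13 ± 0.09, none of them called.

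Vps35 is the core of retromer, the coat that returns membrane proteins from endosomes to the Golgi or the cell surface. It stood at -0.94, -0.82, -0.79 and -0.86 in controls and at -0.46, -0.63, -0.31 and -0.37 in stressed mice. No stressed value reached down to a control, and stressed 2 was again the lowest. The rise was 0.41 ± 0.08 (adjusted p = 0.0466; probe at chr8:87785143-87785202). Of 16 retromer and endosome genes 12 measured higher, with a median of 0.15. Those with an unadjusted p below 0.05 were Vps35, the retromer subunits Vps26a (0.19 ± 0.06) and Vps26b (0.23 ± 0.09), and Tbc1d5, a Rab regulator bound to retromer (0.22 ± 0.09), all higher. Groups did not overlap for 3 of the 16, Vps35, Vps26a and Tbc1d5, against 2.6% of all genes in that direction. The list was drawn around Vps35 after it had been called, so these counts are a description only.

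Cast encodes calpastatin, the protein that inhibits the calcium-dependent proteases called calpains. Controls read 1.29, 1.16, 1.29 and 1.28, and stressed mice 1.65, 1.4, 1.8 and 2.02. Control values were nearly equal, while the stressed mice spread widely above them. Cast rose by 0.46 ± 0.09 (adjusted p = 0.0466; probe at chr13:74831931-74831990). Of 9 calpain genes tested 5 measured higher, with a median of 0.02 (-0.02 in the authors' table). The large subunits of the ubiquitous calpains stayed near 0, with Capn2 at 0.12 ± 0.08 and Capn1 at -0.07 ± 0.13, whereas Capn7 differed by 0.22 ± 0.08 (adjusted p = 0.198).

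The other 2 rises were in Tceal1, a nuclear protein related to a transcription elongation factor, and in the predicted gene Gm5918. Tceal1 read -1.26, -1.23, -1.17 and -1.39 in controls and -0.65, -0.91, -0.7 and -0.59 in stressed mice, a rise of 0.55 ± 0.11 (adjusted p = 0.0466; probe at chrX:133243937-133243996). Its groups lay clearly apart. Gm5918 rose by 0.43 ± 0.08, from between -0.46 and -0.17 in controls to between -0.08 and 0.28 in stressed mice. For none of the 6 risen genes was the difference from the T5R1 effect called.

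The falls were led by probes that are unusual in sequence, shown here because the values below turn on it. Of the 15 fallen genes, 6 were measured by a probe that holds a run of AGAGAGAG or GGAGGAGG, printed in capitals in a stretch of each probe as the array design gives it.
Cabp5: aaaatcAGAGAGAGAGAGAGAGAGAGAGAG
Dcaf12l2: GAGAGAGAGAGAGAGAGAGAGAGAtttcta
ENSMUST00000072455: aaaacaAGAGAGAGAGAGgcaaaaccccgt
Gm2911: gaGGAGGAGGAGGAGGAGGAGGAGGAGGAG
2610318N02Rik: agaagaGGAGGAGGAGGccaaaaccaaaga
The lincRNA on chromosome 3: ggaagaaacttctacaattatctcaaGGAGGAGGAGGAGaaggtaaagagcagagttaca
The other 2 fallen lincRNAs, on chromosomes 4 and 13, have probes with neither run.
The lincRNA on chromosome 4: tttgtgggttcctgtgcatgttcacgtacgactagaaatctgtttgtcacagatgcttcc
The lincRNA on chromosome 13: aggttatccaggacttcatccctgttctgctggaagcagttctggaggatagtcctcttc
On mm9 the probes lie at chr7:13993821-13993880 (Cabp5, plus strand), chrX:41719459-41719518 (Dcaf12l2, minus), chr16:70382293-70382352 (the Ensembl transcript, minus), chr9:72767077-72767136 (Gm2911, plus) and chr16:17118540-17118599 (2610318N02Rik, minus). The lincRNA probes lie at chr3:36347321-36347380 (plus), chr4:124200308-124200367 (minus) and chr13:9819869-9819928 (minus).

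Cabp5, a calcium-binding protein known from retinal neurons, fell most of the genes with an official symbol. Controls read 6.17, 6.48, 6.58 and 6.18, and stressed mice 4.29, 3.91, 4.85 and 5.54. All stressed mice lay below all controls, stressed 4 the least. The fall was -1.71 ± 0.24 (adjusted p = 0.00129), and it differed from the T5R1 effect by -1.44 (adjusted p = 0.0191). The other Cabp5 probe on the array, without a run, was well above background on 1 of the 8 arrays and read -4.23, -4.58, -4.79 and -5.1 in controls and -5.16, -5.1, -4.37 and -4.93 in stressed mice, with the groups overlapping.

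Dcaf12l2, a relative of substrate adaptors of the CUL4 ubiquitin ligase, read 6.57, 6.41, 6.66 and 6.25 in controls and 5.03, 4.53, 5.24 and 5.61 in stressed mice. It fell by -1.36 ± 0.28 (adjusted p = 0.0493), with the groups apart. Its second probe, with no run, gave 1.31, 0.71, 1.29 and 0.83 in controls and 0.41, -0.32, 1.4 and 1.77 in stressed mice, which overlap and differ by -0.22. Dcaf12l2 was also called lower at T5R1, by -0.84 (adjusted p = 0.0417).

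For 2610318N02Rik controls read 0.75, 1.14, 0.96 and 0.59, and stressed mice -0.88, -1.37, -0.74 and 0.22. Stressed 4 lay near the lowest control and the others far below. The fall was -1.55 ± 0.26 (adjusted p = 0.0103). Of the 3 other probes of this gene, the 2 above background on all 8 arrays differed by -0.58 and -0.13, and the other, at -0.87, was above background on 0 of 8. The predicted gene Gm2911 read 7.72, 7.61, 8.05 and 7.66 in controls and 6.21, 6.15, 7.06 and 7.2 in stressed mice, a fall of -1.1 ± 0.18 (adjusted p = 0.0092). ENSMUST00000072455 fell by -1.66 ± 0.27 (adjusted p = 0.0092) and the lincRNA of the region chr3:36280098-36347798 by -1.12 ± 0.18 (adjusted p = 0.0103). In all of these the stressed mice lay below the controls without overlap. This lincRNA has 5 other probes. The 2 above background on all 8 arrays differed by -0.53 and -0.21, with the groups overlapping. A second probe of ENSMUST00000072455, above background on 1 of 8 arrays, differed by 0.33.

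The runs were noticed after the values had been seen, so they are described here and not tested. Searched on the probe strand, AGAGAGAG or GGAGGAGG stood in the probes of 186 tested genes (0.676%, against 0.596% of all probes on the array), and no probe held both. In that set 149 genes (80.1%) measured lower, the median was -0.39 against -0.02 for all genes, and 80 (43%) were lower at an unadjusted p below 0.05, against 7.47% of all genes. The opposite strand, CTCTCTCT or CCTCCTCC, stood in the probes of 189 genes, of which 101 (53.4%) measured lower, with a median of -0.01. AGAGAGAG alone gave 97 genes with a median of -0.37, and GGAGGAGG 89 genes with a median of -0.43, so both runs showed it.

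Relative to the control mean, the median of the 186 genes was -0.07, 0.04, 0.14 and -0.09 in the controls and -0.11, -0.33, -0.58 and -0.37 in the stressed mice. Stressed 3 lay furthest down and stressed 1 close to the lowest control. The median stress effect on the same genes was -0.27 at T5R1, -0.13 at T10R1 and 0.02 at T10R42, the conditions with 10 days of exposure. Over all genes these medians were -0.12, 0 and -0.03, and for the opposite strand -0.16, 0.07 and -0.23. Among brighter probes (mean level above 4) 49 genes with a run had a median of -0.49 and 2683 others 0.04. Among dimmer ones the medians were -0.3 for 137 genes and -0.03 for 24666. With the probes that hold a run left out, 2 genes were called lower and none higher, with 18 of the 21 still tested, and of the 2 the chromosome 4 lincRNA alone had been called before. The second was Cplx2, a complexin of synaptic vesicle release, then measured by another of its probes. What lowers the signal of these probes was not tested.

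**Figure D2:**
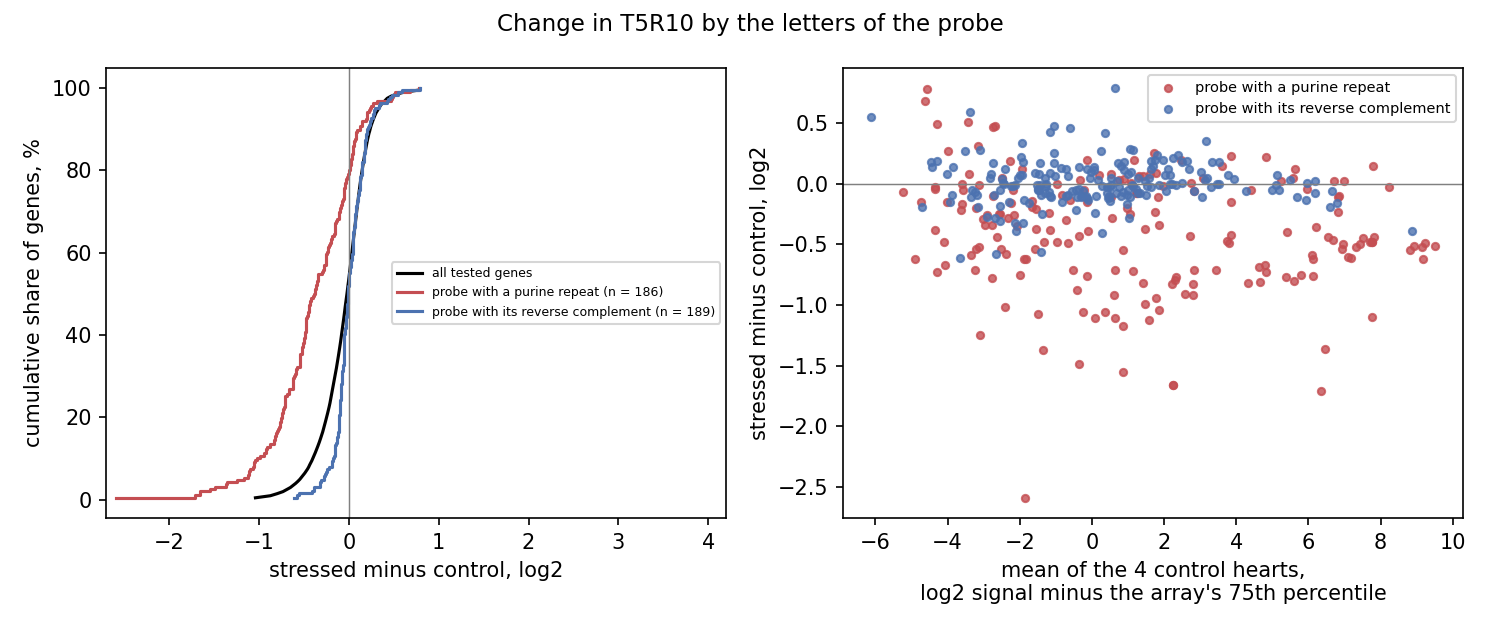
Stressed minus control in T5R10 for genes whose probe holds AGAGAGAG or GGAGGAGG, for genes whose probe holds the opposite strand, and for all tested genes, as cumulative shares of genes in percent (left), and the same differences against the mean level of the 4 control hearts for both sets (right). The 186 genes with a run lie to the left of all genes, with a median of -0.39, and the 189 of the opposite strand have a median of -0.01. Most genes with a run lie below 0, at low and at high levels alike.

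The other 9 falls came from probes without such a run, and their members were mostly transcripts without a known role. The lincRNA of chr4:124127144-124334840 read -2.4, -2.71, -2.93 and -2.36 in controls and -3.49, -3.47, -3.64 and -3.72 in stressed mice. The groups were well apart and the stressed mice close together. It fell by -0.98 ± 0.13 (adjusted p = 0.00129) and was at 0.04 at T5R1, so the effects differed by -1.02 (adjusted p = 0.00392). Of its 4 other probes, those above background on 7 and 6 of the 8 arrays differed by -0.12 and -0.18, and with the probes of a gene averaged the difference was -0.43 and not called (adjusted p = 0.361). The lincRNA of chr13:9818700-9824125 fell by -0.44 ± 0.09 and had fallen at T5R1 too, by -0.55 (adjusted p = 0.000127). The predicted or provisional genes Gm3624 (-1.29), Gm9732 (-0.85), LOC100046976 (-0.85), ENSMUST00000070378 (-0.66) and Gm3640 (-0.58) made up the unnamed rest.

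Krt27, a keratin of the inner root sheath of hair, read -0.62, -1.22, -1.78 and -0.72 in controls and -2.55, -2.73, -2.16 and -2.48 in stressed mice. Control 3 came nearest to the stressed mice, but the groups did not overlap. The fall was -1.4 ± 0.28 (adjusted p = 0.0466), in a gene whose probe spans chr11:99207158-99207828. Of 19 keratins tested 13 measured lower, with a median of -0.19, and Krt27 alone was called.

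Cnr2 is the cannabinoid receptor of immune cells, found chiefly on B cells. Its controls read 1.53, 1.65, 1.26 and 1.18, and its stressed mice -0.32, -0.11, 0.37 and 1.32. Stressed 4 sat inside the control range, and the others lay well below it. The fall was -1.09 ± 0.21 (adjusted p = 0.0466; probe at chr4:135476052-135476111), and it differed from the T5R1 effect by -1.19 (adjusted p = 0.033). Of 10 B cell genes, which include Cnr2, 6 measured lower, with a median of -0.11 (0.02 under quantile normalisation), and their mean over the list lay between -0.3 and 0.18 in controls and between -0.46 and 0.23 in stressed mice. Of 9 endocannabinoid genes 6 measured higher, among them Daglb, a lipase that makes the ligand, at 0.21 ± 0.07 (adjusted p = 0.167). In RNA of whole hearts, fewer cells of a type and less RNA per cell cannot be told apart.

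The calls depended on single animals and on how the spread was estimated. Without stressed 2, 276 genes were called higher and 324 lower, and all 21 calls were among them. That mouse was the lowest stressed animal in Pdk1, Cast, Vps35 and Tceal1, and its adipocyte genes stood apart, with a list mean of 1.74 against -0.59 to 0.19 in the other stressed mice. Without the 3 marked arrays 330 were called higher and 758 lower (3.95%), with 15 of the 21 kept. Without control 2 the count was 1 higher and 4 lower, and with the T5R10 arrays fitted alone it was 0, with 2552 genes at an unadjusted p below 0.05. Cabp5 and Gm2911 each held in 19 of 21 alternatives, as neither was tested where the probes that hold a run were left out. The chromosome 4 lincRNA held in 18 of 22, Ogg1 in 14, Cast and Cnr2 in 11, Tceal1 and Krt27 in 10, Pdk1 in 9, and Vps35 and Dcaf12l2 in 8. With the slide row as a block, where each row held both arms, 7 of the 21 calls were kept.

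**Figure D3:**
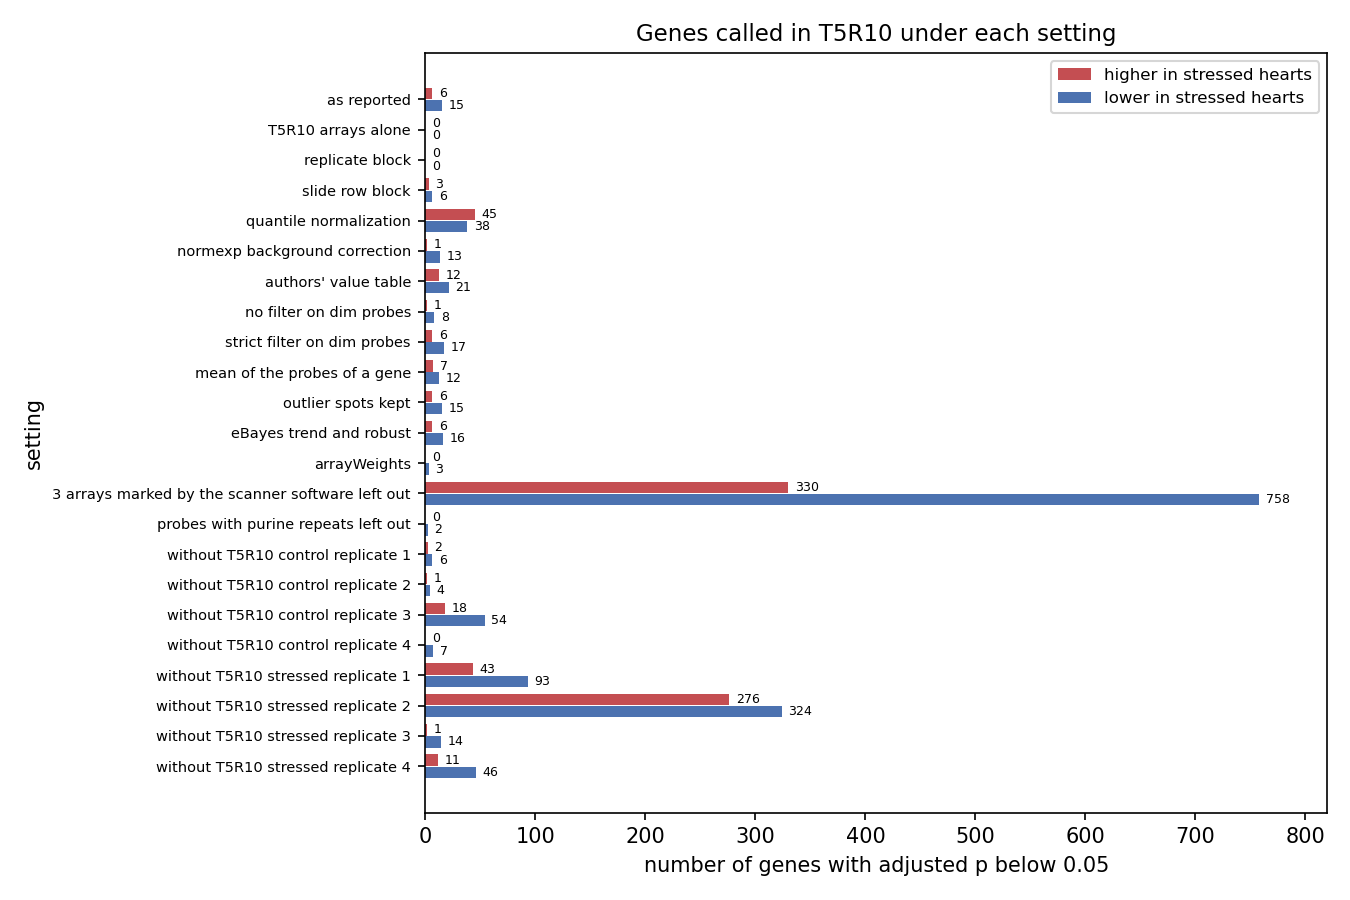
Number of genes called higher and lower in T5R10 under the reported setting and each of 22 alternatives on a linear axis from 0, with each count printed at its bar. The reported setting gives 6 higher and 15 lower, leaving out stressed 2 gives 276 and 324, and fitting the T5R10 arrays alone gives none.

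The beta myosin heavy chain Myh7 had the largest difference among heart muscle genes, short of the threshold. Controls read 4.45, 4.51, 4.4 and 5.02, and stressed mice 5.48, 5.82, 7.1 and 6.46. All 4 stressed mice lay above the controls, stressed 3 and 4 by most. Those mice shared a slide column, so a difference between the pairs cannot be told apart from slide column. The difference was 1.62 ± 0.39 (limma adjusted p = 0.0814; two-sided exact permutation p = 0.0286, the smallest that 4 against 4 allows). At T5R1 it was 1.05 (adjusted p = 0.0681), and the difference between the effects, 0.57, was not called. Without stressed 2 the Myh7 difference was 1.75 (adjusted p = 0.0324), and without the 3 marked arrays 2.33 (adjusted p = 0.00788). The latter setting kept only stressed 3 and 4 in the stressed arm, the mice highest in Myh7. Of the 22 alternatives Myh7 was called in 3, and its limma adjusted p ran up to 0.451.

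The adult chain Myh6 read between 9.88 and 10.32 in controls and between 9.77 and 10.14 in stressed mice, a difference of -0.24 ± 0.13 (adjusted p = 0.425; exact permutation p = 0.143). Myh7b, a relative of Myh7 with its own gene, was at 5.71, 5.72, 5.93 and 5.99 in controls and 5.73, 5.75, 5.12 and 4.95 in stressed mice. Stressed 3 and 4, which shared a slide column, were low and the other stressed mice within the control range. The difference of -0.45 ± 0.14 was not called (adjusted p = 0.158). It was called without stressed 2 (-0.57, adjusted p = 0.0364) and without the 3 marked arrays (-0.75, adjusted p = 0.00254). Both settings left out mice within the control range, stressed 2 in the first and stressed 1 and 2 in the second. The natriuretic peptides, which the heart secretes under wall stretch, lay within the spread between mice: Nppa differed by 0.04 ± 0.25 and Nppb by -0.41 ± 0.36 (exact permutation p = 1 and 0.343).

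Genes of collagen and matrix lay higher as a group without any being called. Of 28 tested 24 measured higher, with a median of 0.34, 11 had an unadjusted p below 0.05 in that direction, and in 9 the groups did not overlap. Over all genes the last 2 shares were 6.49% and 2.6%. The list mean was -0.1 to 0.05 in controls and 0.28, 0.16, 0.53 and 0.63 in stressed mice 1 to 4. Stressed 3 and 4, which shared a slide column, stood highest. General fibroblast markers did not show such a shift, with 9 of 14 measured higher and a median of 0.02. No member of that list, nor of the matrix list, was at background on all 8 arrays. What part the number of fibroblasts has in the matrix values was not tested.

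Cilp, a matrix protein made by activated cardiac fibroblasts, read -0.79, -0.28, -0.35 and -0.65 in controls and 0.35, 0.36, 1.36 and 1.3 in stressed mice. The groups lay apart, and the stressed mice formed a lower pair (stressed 1 and 2) and a higher pair (stressed 3 and 4). Each pair shared a slide column, so pair and slide column cannot be told apart. The difference of 1.36 ± 0.32 missed the threshold (adjusted p = 0.0814) and passed it without stressed 2 (1.52, adjusted p = 0.026). Thbs4, a thrombospondin of tendon and stressed heart matrix, differed by 1.07 ± 0.30 (adjusted p = 0.118), from 0.34 to 0.59 in controls to 1.04 to 2 in stressed mice.

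The chief fibrillar collagen Col1a1 read 2.77, 2.93, 2.69 and 2.78 in controls and 3.48, 3.16, 3.78 and 4.07 in stressed mice. Its partner Col3a1 read 3.55, 3.79, 3.21 and 3.4, and then 4.05, 3.82, 4.65 and 5.02. In both genes every stressed mouse exceeded every control, by little in stressed 2. The differences were 0.83 ± 0.30 and 0.9 ± 0.32 (adjusted p = 0.211 and 0.206; exact permutation p = 0.0286 each). Periostin, Postn, made by activated fibroblasts, differed by 0.91 ± 0.42 (adjusted p = 0.332; exact permutation p = 0.0571).

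Of 18 TGF-beta genes 16 measured higher, with a median of 0.16, and 5 had an unadjusted p below 0.05. Ltbp2, which belongs to the family that tethers the latent ligand to matrix, read 1.07, 1.54, 1.15 and 1.2 in controls and 1.84, 2.12, 2.46 and 2.2 in stressed mice. The groups lay apart, with a difference of 0.92 ± 0.34 (adjusted p = 0.218). The co-receptor Tgfbr3 differed by 0.39 ± 0.10 (adjusted p = 0.0936) and the shared signal carrier Smad4 by 0.19 ± 0.07 (adjusted p = 0.243). Among angiotensin genes, Mas1, a receptor for a vasodilator angiotensin peptide, differed by -0.77 ± 0.19 (adjusted p = 0.0908), and the main pressor receptor gene Agtr1a by 0.31 ± 0.11 (adjusted p = 0.208). In both, stressed mice and controls were apart, in opposite directions. A second, dimmer Mas1 probe differed by -0.53, and on it stressed 2 (-3.04) lay within the control range (-3.36 to -2.96).

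**Figure D4:**
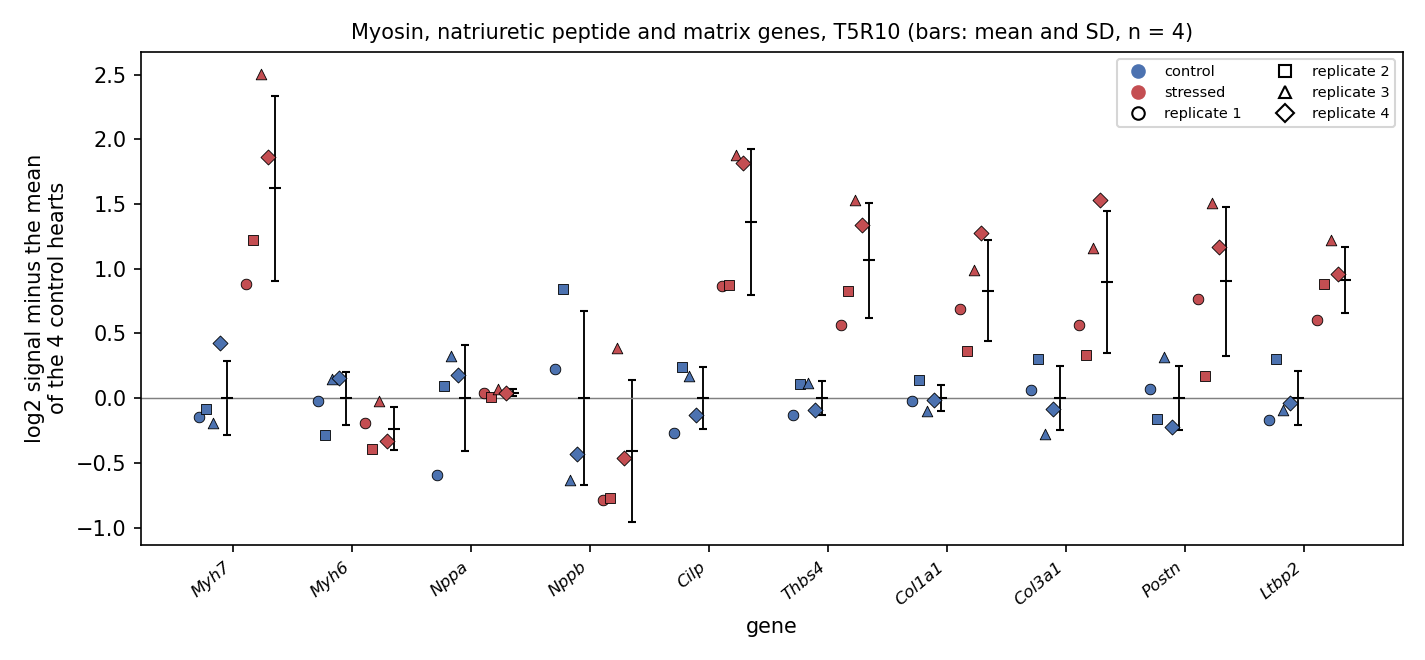
Level of myosin, natriuretic peptide and matrix genes in the 4 control and 4 stressed mice of T5R10, in log2 units relative to the mean of the 4 control hearts, with bars for the mean and SD. Myh7, Cilp, Col1a1 and Col3a1 show every stressed mouse above every control, and stressed 3 and 4 lie above stressed 1 and 2. Each of these pairs shared a slide column, so pair and slide column cannot be told apart.

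Whether the longer rest changed the response was asked with the difference of the T5R10 and T5R1 effects, each against its own controls on its own slide. The difference was called for 686 genes (2.49%), 326 of them with the higher effect at T5R10 (1.18%) and 360 with the lower (1.31%). Slide and condition cannot be told apart, though each effect was taken within its slide. At T5R1 3778 genes were called (13.7%), 1458 of them higher (5.3%) and 2320 lower (8.43%).

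Genes of cell division were among those with the smallest p-values of the difference. Of 31 cell cycle genes tested 28 were called higher at T5R1, against 5.3% of all genes, with a median of 2.03. At T5R10 none was called in either direction, with a median of 0.02. The difference was called for 26, all with the lower effect at T5R10, against 1.31% of all genes. Kif22, a chromosome-arm kinesin, read -2.28, -2.21, -2.32 and -2.01 in T5R10 controls and -2.28, -1.94, -2.04 and -2.12 in stressed mice, which overlap. Its effect was 2.22 at T5R1 and 0.11 at T5R10, a difference of -2.11 ± 0.24 (adjusted p = 3.41e-05). Birc5, the survivin of the mitotic spindle, had effects of 2.37 and -0.10 (difference -2.47 ± 0.29, adjusted p = 3.64e-05), and Cdca3, a cell-division-cycle associated gene, of 3.2 and 0.05 (-3.15 ± 0.40, adjusted p = 0.000135). The thymidine kinase Tk1 and the kinetochore gene Cenpk differed by -1.47 and -1.9.

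Matrix genes had smaller effects at T5R10 than at T5R1. Of the 28 collagen and matrix genes 24 were called higher at T5R1, against 5.3% of all genes. The median was 1.33 at T5R1 and 0.34 at T5R10. The difference was called for 12, all with the lower effect at T5R10, against 1.31% of all genes. For Col3a1 the effects were 2.95 and 0.9, a difference of -2.05 ± 0.46 (adjusted p = 0.0146), and for Col1a1 2.53 and 0.83, a difference of -1.71 (adjusted p = 0.0314). Loxl2, which crosslinks collagen, had a difference of -1.49 (adjusted p = 0.00745). Fap, a surface protease of activated fibroblasts, had an effect of 0.49 at T5R1 and -0.27 ± 0.10 at T5R10, where it read 1.22 to 1.4 in controls and 0.89 to 1.16 in stressed mice, without overlap. The difference was -0.76 (adjusted p = 0.00557).

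Macrophage and interferon genes lay on opposite sides of 0 in the 2 conditions. Of 22 macrophage genes 13 were called higher at T5R1, against 5.3% of all genes, with a median of 0.51. The difference between the effects was called for 8, all with the lower effect at T5R10, against 1.31% of all genes. At T5R10 16 measured lower, with a median of -0.14 and none called. The list mean lay between -0.07 and 0.06 in controls and between -0.24 and 0.13 in stressed mice, which overlap. The largest difference in the list was in the other direction, Ccr2, a chemokine receptor of recruited monocytes, at 1.11 ± 0.45 (adjusted p = 0.259). Ccr2 read -2.09, -2.67, -2.22 and -2.96 in controls and -1.92, -2.38, -1.82 and 0.62 in stressed mice. Its groups overlapped, and stressed 4 stood far above the other mice. Folr2, a marker of resident macrophages, read 1.6, 1.78, 1.46 and 1.71 in T5R10 controls and 1.1, 1.29, 1.19 and 1.4 in stressed mice. The stressed mice all lay below the controls, and the effects differed by -0.7 (adjusted p = 0.0087). Csf1r, the receptor that macrophages need to live, had effects of 0.33 and -0.24 ± 0.09.

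Of 31 interferon-induced genes 29 measured lower at T5R10, with a median of -0.19. At an unadjusted p below 0.05, 2 lay lower, against 7.47% of all genes, and none was called. The list mean spanned -0.25 to 0.29 in controls and -0.35 to -0.1 in stressed mice, so the arms overlapped. The antiviral GTPase Mx2 read -0.95, -0.65, -1.01 and -1.18 in controls and -1.66, -1.92, -1.96 and -1.29 in stressed mice. The difference of -0.76 ± 0.18 was not called (adjusted p = 0.0836), and that from T5R1 was, at -1.11 (adjusted p = 0.0217). Ifi44 differed from T5R1 by -1.16 (adjusted p = 0.022), and Lcn2, an acute-phase protein, by -1.51 (adjusted p = 0.00856).

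For some genes the effects at T5R1 and T5R10 had opposite signs. Cib3, of a family of calcium- and integrin-binding proteins, had an effect of -1.27 at T5R1 and of 0.78 ± 0.19 at T5R10, the latter not called (adjusted p = 0.0836), and a difference of 2.05 ± 0.27 (adjusted p = 0.000165). Its T5R10 values were -0.26, -0.49, -0.89 and -0.53 in controls and 0.27, 0.03, 0.69 and -0.03 in stressed mice, with no overlap. Pidd1, a p53-induced scaffold for caspase activation, had effects of 0.94 and -0.75 ± 0.15, a difference of -1.68 ± 0.21 (adjusted p = 0.000135). In T5R10 it read -2.38, -2.16, -2.7 and -2.43 in controls and -3.49, -3.11, -3.17 and -2.89 in stressed mice, and missed the threshold narrowly (adjusted p = 0.053). A second Pidd1 probe differed by -0.43, with stressed 2 (-2.44) within the control range (-2.94 to -2.21).

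Among genes of working heart muscle, Myom2, a protein of the sarcomere's M-band, had effects of -0.69 and 0.24 ± 0.10 (difference 0.93, adjusted p = 0.000763), and Ldhd, a mitochondrial D-lactate dehydrogenase, of -0.59 and 0.13 ± 0.08 (difference 0.72, adjusted p = 0.000861). The fatty acid carrier Cd36 read 5.28, 5.21, 5.21 and 5.17 in T5R10 controls and 5.43, 5.3, 5.57 and 5.46 in stressed mice, just clear of each other. Its T5R10 effect was 0.22 ± 0.09, and the difference from T5R1 was 0.53 (adjusted p = 0.016). The adrenergic receptor gene Adra1a had effects of -0.49 and 0.5 ± 0.16, a difference of 0.99 (adjusted p = 0.0188). Rdm1, a recombination gene, was at -0.7 and -0.07, a difference of 0.64 (adjusted p = 0.000389).

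The genes called at T5R1 were then followed as a set. The 1458 called higher had a median of 0.62 at T5R1 and 0.08 at T5R10, where 68.6% still measured higher, against 46.1% of all genes. Of them 200 (13.7%) were higher and 21 (1.44%) lower at an unadjusted p below 0.05, and Ogg1 alone was called. The 2320 called lower had medians of -0.44 and -0.06, with 65.9% still lower against 53.9% of all genes, and Dcaf12l2 and the chromosome 13 lincRNA were called. The difference itself was called for 345 (23.7%) of the first set and 279 (12%) of the second, against 2.49% of all genes. The T5R1 calls chose both sets and the T5R1 effect is a term of that difference, so these shares are a description only, and smaller values at T5R10 follow in part from the choice.

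**Figure D5:**
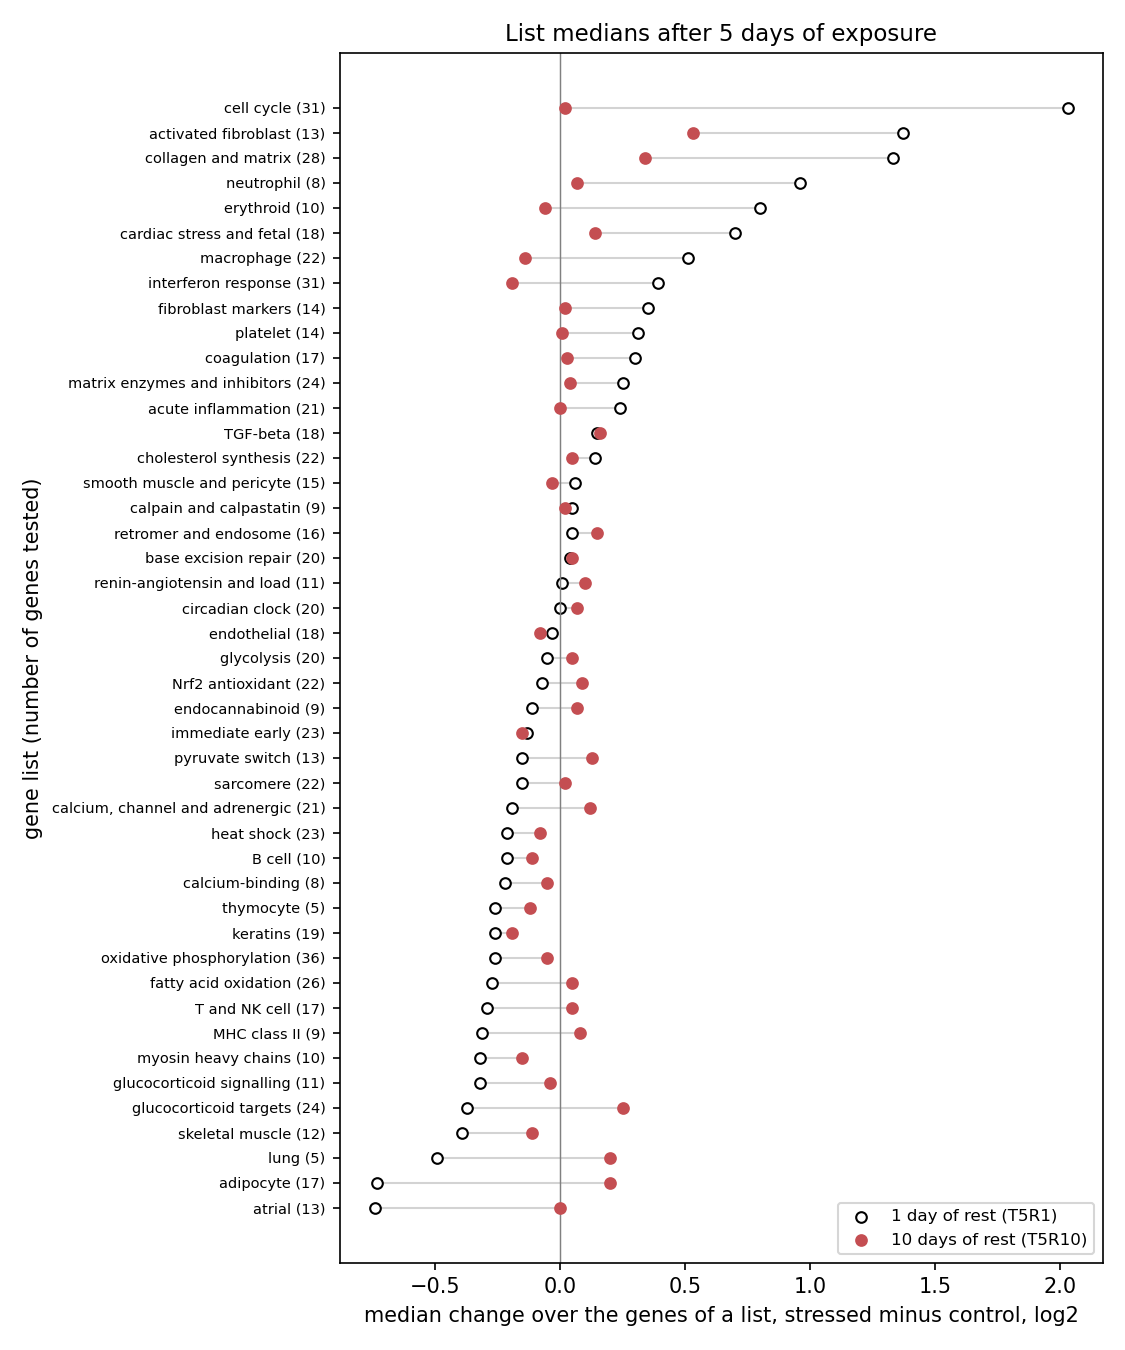
Median stressed minus control over each gene list at T5R1 and at T5R10, in log2 units, with lists ordered by the T5R1 median and the number of genes tested in parentheses. The cell cycle list lies at 2.03 and 0.02 and the collagen and matrix list at 1.33 and 0.34, and most T5R10 medians lie close to 0.

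Over all 45 lists 734 genes were tested and 7 were called, against 0.0763% of all genes. Several lists were drawn around the called genes themselves, among them those of retromer, calpains, keratins and endocannabinoids, so nothing is read from that count. Stress hormone targets leaned upward: 22 of 24 glucocorticoid targets measured higher, with a median of 0.25. At an unadjusted p below 0.05, 2 lay higher, against 6.49% of all genes, and none was called. Control 3 lay above every stressed mouse in the list mean (0.39 against 0.07 to 0.35). Fkbp5, the receptor's co-chaperone and a sensitive target, read 2.09, 1.69, 2.92 and 2.3 in controls and 2.77, 2.81, 2.86 and 2.47 in stressed mice. The groups overlapped through control 3, and the difference was 0.48 ± 0.25 (adjusted p = 0.385; exact permutation p = 0.143). Glul, glutamine synthetase, differed by 0.31 ± 0.13 and from its T5R1 effect by 0.69 (adjusted p = 0.0472).

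The medians of energy genes lay near 0. Of 36 oxidative phosphorylation genes 24 measured lower, with a median of -0.05 that turned to 0.06 under quantile normalisation, against -0.26 at T5R1. At an unadjusted p below 0.05, 5 of them lay lower, against 7.47% of all genes. Among these, Atp5c1 (-0.91) and Atp5o (-0.71) were far below the controls only in stressed 1 and 2, which shared a slide column. Of 26 fatty acid oxidation genes 15 measured higher, with a median of 0.05. Of 22 antioxidant genes under Nrf2 18 measured higher, with a median of 0.09. Cyp51, an enzyme of sterol synthesis, differed by 0.48 ± 0.10 (adjusted p = 0.0671), the smallest p of the 22 genes in its list. Outside the lists' leading members, Syap1, a synapse-associated protein, differed by 0.34 ± 0.07 (adjusted p = 0.0629). Sec23a, a coat protein of vesicles leaving the endoplasmic reticulum, differed by 0.52 ± 0.11 (adjusted p = 0.0688). Each had its groups apart and missed the threshold.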

How the data were processed

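Probe positions come from the array annotation (mm9). The deposited intensity values are the output of Agilent Feature Extraction 10.7.3.1, per the file headers: a processed signal for each spot after detrending and background subtraction. Other deposited values are flags (0 or 1) for outliers, saturation and signal over background. A deposited table by the authors gives log2 values. Its T5R10 columns correlated at 0.9995 or more with the log2 mean signal, their medians were 6.319 to 6.326, and they were used as an alternative only.

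From the files, log2 processed signal less each array's 75th percentile was computed. Outlier spot readings (5470, summed over all 32 arrays) and control spots (3671 of the 62976 spots of an array) were left out. Of 55681 probes, 26413 took their names through RefSeq accessions (GRCm38.p6 gene table), 574 through another probe and 28694 kept the array's name. Probes well above background on 3 arrays of a group were kept (38827), and the brightest represented each gene. limma 3.58.1 (R 4.3.3) fitted 8 group means over 32 arrays, with p-values adjusted by Benjamini-Hochberg, so all conditions share an estimate of the spread. It was tested on simulated data. Alternatives were other normalisations, backgrounds, filters, blocks, weights and left-out arrays.

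Genes named were the called genes, those with the smallest p or largest change, up to 4 per list and a few chosen by name. The members, lists and named genes were chosen with earlier results of these data known. The result of a further gene is not reported here.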

Additional observations from a re-analysis of the deposited data

Results flagged for a closer look

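In groups of 4 mice, a value was listed where it lay far from the other 3 of its group, which chance does in about 1 of 20 groups. Of 196 groups 7 were listed (3.57%). For Cast control 2 read 1.16, below controls at 1.28 to 1.29. For Apex1 control 4 read 1.06 above the other controls, and stressed 2 read 1.09 below the other stressed mice. In list means, heat shock genes stood at -0.42 in stressed 2, fatty acid oxidation genes at 0.15 in stressed 3, calpain genes at 0.11 in control 1, and smooth muscle and pericyte genes at -0.12 in control 1.

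The stress effect differed between T5R10 and T5R1 in 686 genes by the test of the difference. Among those named, the effect was lower at T5R10 in the cell division genes Kif22 (-2.11), Birc5 (-2.47), Cdca3 (-3.15), Tk1 (-1.47) and Cenpk (-1.9), and in Pidd1 (-1.68). It was lower in the matrix and fibroblast genes Col3a1 (-2.05), Col1a1 (-1.71), Loxl2 (-1.49) and Fap (-0.76). Immune and acute-phase genes on that side were Mx2 (-1.11), Folr2 (-0.7), Ifi44 (-1.16), Cnr2 (-1.19) and Lcn2 (-1.51), with Cabp5 (-1.44) beside them. The effect was higher at T5R10 in Cib3 (2.05), Rdm1 (0.64), Myom2 (0.93), Ldhd (0.72), Adra1a (0.99) and Cd36 (0.53).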

How the results depend on the processing

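Of 1710 values of the genes followed under 22 alternatives, of which leaving out the run-holding probes was chosen after seeing the data, none changed sign, 238 lost the threshold and 50 gained it, and 23 of 990 list medians moved by more than the spread between mice. The counts of calls were less steady than 6 higher, 15 lower and 686 differing from T5R1. Same-numbered mice deviated together at correlations of 0.2, 0.12, 0.18 and -0.27, so the numbers were not taken as pairs, though 3 of 4 were above 0.1 and the numbers go with the slide rows. The replicate numbers as a block gave 0, 0 and 396 (4056 genes at an unadjusted p below 0.05), and T5R10 arrays alone 0, 0 and 209. Counts higher and lower were 3 and 6 with the slide row as a block, 45 and 38 with quantile normalisation, 12 and 21 with the authors' table, 0 and 3 with array weights, 330 and 758 without the marked arrays and 0 and 2 without the run-holding probes. Normexp background gave 1 higher. Without the filter on dim probes 1 and 8 were called, and 392 differed. Leaving out 1 mouse gave 0 to 276 higher, 4 to 324 lower and 354 to 829 differing. In detail it gave 2 and 6 without control 1 (437 differing), 1 and 4 without control 2 (354), 18 and 54 without control 3, 0 and 7 without control 4, 43 and 93 without stressed 1, 276 and 324 without stressed 2, 1 and 14 without stressed 3 (370) and 11 and 46 without stressed 4. The cause was not tested. Probes near background (Cdca3, Ciart) are read least well.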

Other observations

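Clock and stress-inducible genes differed among the control mice themselves. Dbp, a clock output factor, read 3.59 and 3.49 in controls 1 and 2 and 5.49 and 5.24 in controls 3 and 4, against 5.93, 5.36, 5.19 and 4.55 in stressed mice. Ciart, a repressor of the clock, read -5.57, -4.53, -1.64 and -2.76 in controls and -0.88, -1.8, -2.15 and -3.57 in stressed mice. Of 20 clock genes none was called, and the list mean was -0.16 and -0.19 in controls 1 and 2 and 0.25 and 0.1 in controls 3 and 4. Hspa1a, the inducible heat shock protein, read -0.28, 2.22, 0.03 and 3.17 in controls and lay between -0.74 and 0.75 in stressed mice. Of 23 immediate early genes 17 measured lower, with a median of -0.15, and Nr4a1 read 3.97, 4.92, 3.92 and 4.75 in controls and 4, 3.65, 3.26 and 2.35 in stressed mice.

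Fat cell genes set a single mouse apart. Of 17 adipocyte genes 16 measured higher, none with an unadjusted p below 0.05, and the list mean was 0.18, 1.74, 0.19 and -0.59 in stressed mice 1 to 4.

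Some probes set a pair of mice apart from the other 6 by more than 1.5 log2 units, a pattern looked for after the values were seen. It held for 27 probes in stressed 1 and 2, which shared a slide column, and these lay in 11 of the 164 columns of spots. It held for 30 probes in stressed 3 and 4, which also shared a slide column, in 14 columns of spots. Control 3 and stressed 1 gave 30 probes in 28 columns of spots, and of the 28 pairs of mice none of the others gave more than 8. Gm11559 read -0.08, -0.15, -0.14 and 0.05 in controls and 4.01, 4.16, 0.24 and -0.37 in stressed mice. Snhg10 read 2.02 and 1.99 in stressed 1 and 2 and -0.86 to -0.42 in the other mice. Atp5c1, a subunit of ATP synthase, read 4.31 and 4.21 in stressed 1 and 2 and 6.02 to 6.31 in the others, while its second probe differed by 0.02 between the arms. The cause was not tested.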
